A study of Mus musculus with 12 samples.

Results

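The 6 genes described here, of 38911 genes in the deposited counts, form a glucose-sensing module: the transcription factor genes *Mlxip* (MondoA), *Mlxipl* (ChREBP) and *Mlx*, and *Txnip*, *Arrdc4* and *Klf10*, which such factors are known to regulate. They were chosen by symbol, and RefSeq transcripts were summed per symbol. *Txnip*, *Arrdc4* and *Klf10* were chosen on their measured fall between 1× and 0× glucose, so that fall is given as a description only. All 6 passed the filter on low counts, with at least 31 counts in every library.

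The libraries are polyA RNA of mouse gastruloids, aggregates of embryonic stem (ES) cells that form axial tissues in culture. All gastruloids were started from 200 cells of the E14TG2a line grown in 2iLIF (the Wnt agonist CHIR, an ERK pathway inhibitor and LIF). In all groups they received CHIR again during culture, were treated from day 3 and harvested on day 4. The 4 groups were medium without glucose (0×), with 21.25 mM glucose (1×), with 63.75 mM glucose (3×), and 1× glucose with 5 mM 2-deoxy-D-glucose (2-DG), an analog that hexokinase phosphorylates but that glycolysis does not use further. Each group has 3 libraries, 1 from each of ES cell passages 13, 15 and 16, and each library pools gastruloids of 1 treatment and replicate. All 12 libraries thus come from 1 cell line, and passage is the only difference between replicates that the labels give. Total counts ranged from 31902471 to 45956080 per library.

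MondoA and ChREBP are basic helix-loop-helix factors that bind DNA as dimers with Mlx. Phosphorylated hexoses are known to bring them to the nucleus, where they bind carbohydrate response elements, pairs of E-box-like half-sites. Txnip and Arrdc4 are alpha-arrestins that limit glucose uptake, and Txnip also binds thioredoxin. Klf10 is a zinc-finger repressor first described as an early gene of the TGF-beta response.

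*Txnip* lies at chr3:96557957-96561857, *Arrdc4* at chr7:68736994-68749238 and *Klf10* at chr15:38291464-38300711 (RefSeq, GRCm38.p6, which is mm10). *Mlxip* lies at chr5:123394521-123457932, *Mlxipl* at chr5:135089890-135139768 and *Mlx* at chr11:101086707-101092207. The plus strand carries *Txnip*, *Mlxip*, *Mlxipl* and *Mlx*, and the minus strand carries *Arrdc4* and *Klf10*. Promoter windows of RefSeq were found for 5 of the 6 genes, all but *Klf10*. The 250 bases before an annotated transcript start were searched on both strands for the E-box CACGTG and for pairs of half-sites CACGNG or CNCGTG with 5 bases between them, which can overlap an E-box. The pair was present in 24 of 32851 mouse windows (0.073%) and the E-box in 1978 (6.02%). Among the genes described, the pair was found only for *Txnip*, with its first base at position -85 from the start. An E-box was found for *Arrdc4* at -193, for *Mlx* at -40 and for the upstream one of 2 *Mlxipl* windows at -98. The *Mlxip* window held neither. The *Mlx* and *Mlxip* windows lie inside the gene spans given above, which begin at starts further upstream. These matches describe letters in the window, not bound sites. The windows of *Txnip* (chr3:96557707-96557956, plus strand), *Arrdc4* (chr7:68749239-68749488, minus strand) and *Mlxipl* (chr5:135089640-135089889, plus strand) are shown 5′ to 3′ because these genes moved between groups, with the half-sites or E-box in capitals.

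Txnip: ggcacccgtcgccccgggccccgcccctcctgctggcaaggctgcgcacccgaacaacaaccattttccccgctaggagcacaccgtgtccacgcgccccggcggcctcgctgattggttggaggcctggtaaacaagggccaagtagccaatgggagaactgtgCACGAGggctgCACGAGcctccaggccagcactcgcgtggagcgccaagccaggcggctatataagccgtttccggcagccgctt
Arrdc4: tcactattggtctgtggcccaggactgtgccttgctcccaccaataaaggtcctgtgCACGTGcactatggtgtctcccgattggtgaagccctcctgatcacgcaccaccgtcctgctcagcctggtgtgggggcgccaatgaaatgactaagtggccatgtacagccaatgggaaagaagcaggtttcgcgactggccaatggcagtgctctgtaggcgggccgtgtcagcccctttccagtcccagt
Mlxipl: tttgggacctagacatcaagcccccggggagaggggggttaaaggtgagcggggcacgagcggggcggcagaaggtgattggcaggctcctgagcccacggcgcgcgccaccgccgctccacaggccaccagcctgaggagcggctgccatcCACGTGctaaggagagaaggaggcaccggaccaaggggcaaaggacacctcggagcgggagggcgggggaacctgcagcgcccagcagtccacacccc

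*Txnip*, *Arrdc4* and *Klf10* showed the same order of levels. They were lowest without glucose, intermediate and overlapping in 1× and 3× glucose, and highest with 2-DG, where their means were 1.82 to 1.91 times those in 1× glucose. Of the sensor genes, *Mlx* overlapped in all groups. *Mlxip* passed the test with 2-DG against 3× but not against 1× glucose, where its log2 fold change was −0.30. *Mlxipl* was the lowest gene, and its total was higher with 2-DG, whereas its coding transcripts alone did not pass the test. Levels are CPM, the counts of a gene per 1000000 counts of its library after TMM normalization. Changes were tested with edgeR's quasi-likelihood test, adjusted by Benjamini-Hochberg over 16966 genes at a threshold of 0.05.

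**Figure D1:**
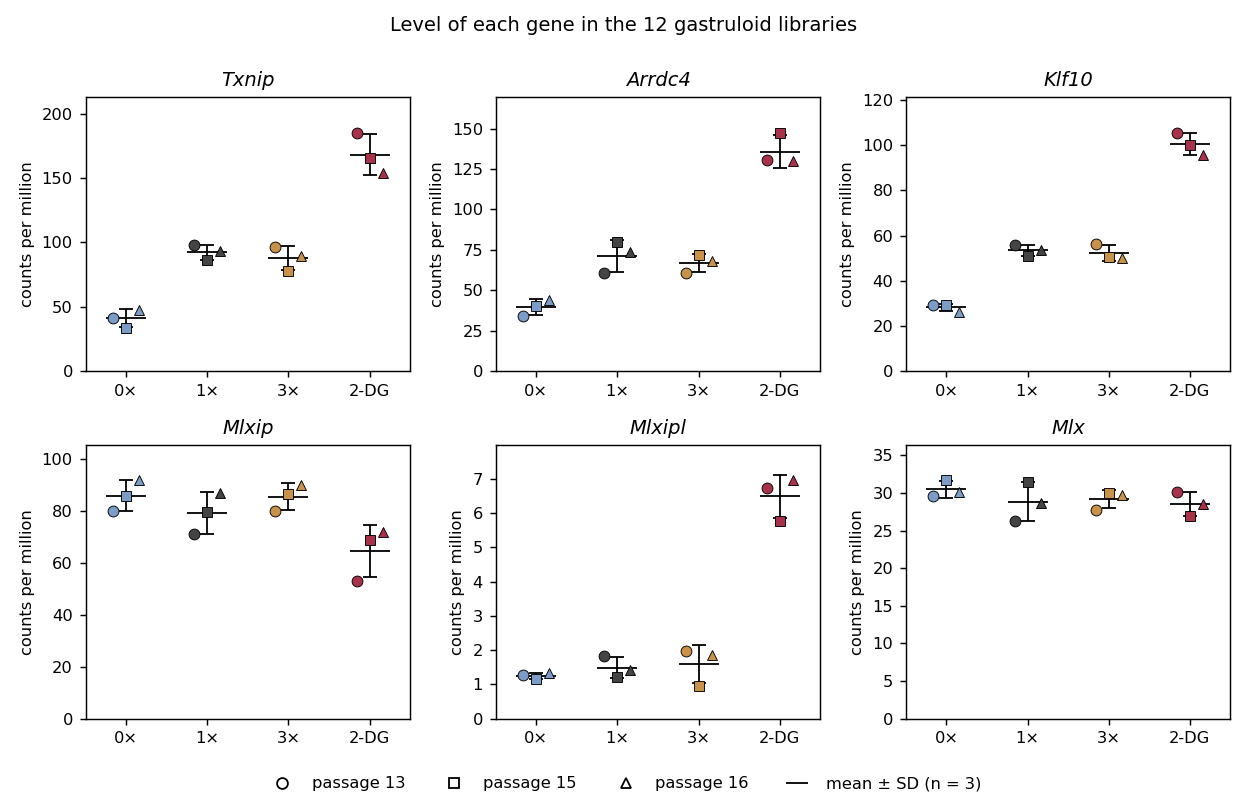
Level of the 6 genes in each library, in CPM (y axis, from 0) by group (x axis), with 1 point per library, symbols for the ES cell passage, and bars for mean ± SD. For *Txnip*, *Arrdc4*, *Klf10* and *Mlxipl* all 3 points with 2-DG lie above all others, and *Mlx* overlaps in all groups.

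*Txnip* was at 97.7, 86.0 and 93.5 CPM in 1× glucose at passages 13, 15 and 16. With 2-DG it was at 185, 166 and 154 CPM in the same order. The lowest 2-DG library thus lay above the highest 1× library, and the ratio within a passage was 1.90, 1.93 and 1.65. The means were 92.4 ± 5.91 and 168 ± 15.6 CPM (SD, n = 3 per group). The fitted log2 fold change was 0.87 (standard error 0.12, edgeR adjusted p = 0.00134).

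In 3× glucose *Txnip* was at 96.2, 77.7 and 89.2 CPM, a range that overlaps that of 1× glucose. Tripling the glucose gave a log2 fold change of −0.07, with a 95% interval from −0.34 to 0.19 (edgeR adjusted p = 1). In 0× glucose it was at 41.4, 33.8 and 47.9 CPM, below every other library. This is a ratio of group means of 0.444 and a log2 fold change of −1.17, and these are the values for which the gene was chosen.

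*Arrdc4*, the closest relative of *Txnip* here, was at 60.4, 80.0 and 73.4 CPM in 1× glucose at passages 13, 15 and 16. With 2-DG it was at 130, 147 and 130 CPM, and no 2-DG library overlapped with 1×. The log2 fold change was 0.93 (standard error 0.12, edgeR adjusted p = 0.0008). The 3 ratios within a passage were 2.15, 1.84 and 1.77.

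In 3× glucose *Arrdc4* was at 60.7, 71.9 and 68.0 CPM, within the range of 1× glucose. The log2 fold change of 3× over 1× was −0.09, with a 95% interval from −0.35 to 0.17 (edgeR adjusted p = 1). In 0× glucose it was at 34.0, 40.5 and 44.1 CPM, below all libraries with glucose. The ratio of means to 1× glucose was 0.555, again the value it was chosen on.

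*Klf10* had the narrowest spread of the 3 target genes. It was at 55.6, 51.1 and 53.5 CPM in 1× glucose and at 105, 100.3 and 95.5 CPM with 2-DG, for passages 13, 15 and 16. The groups lay far apart in relation to their spread, with a log2 fold change of 0.91 (standard error 0.07, edgeR adjusted p = 5.12e-05). The ratio within a passage was 1.90, 1.96 and 1.79.

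In 3× glucose *Klf10* was at 56.4, 50.7 and 50.05 CPM, which overlaps 1× glucose. The 95% interval of the log2 fold change ran from −0.17 to 0.12 (edgeR adjusted p = 1), the tightest bound on a response to added glucose among the 6 genes. In 0× glucose it was at 29.3, 29.1 and 26.4 CPM, a ratio of means to 1× of 0.529. All 3 libraries lay below those with glucose, and the fall from 1× is what the gene was chosen on.

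With 2-DG, 4 of the 6 genes were higher than in 1× glucose by the test and none lower. Over all genes 2990 of 16966 were called (17.6%), 9.12% higher and 8.51% lower. The comparison of 2-DG with 1× glucose shares its 1× libraries with the one that chose 3 of the genes. The comparison of 2-DG with 3× glucose shares none, and there *Txnip* (log2 fold change 0.94, standard error 0.12, edgeR adjusted p = 0.00099), *Arrdc4* (1.02, standard error 0.12, edgeR adjusted p = 0.000525) and *Klf10* (0.94, standard error 0.07, edgeR adjusted p = 4.24e-05) were again higher. It also tests whether 2-DG and 3× glucose moved these genes unequally from 1×. Over all genes 15.2% were called between 2-DG and 3× glucose, 7.85% higher and 7.39% lower, out of which these 3 and *Mlxipl* were higher and *Mlxip* lower. With passage as a block, which lowers the common dispersion from 0.0316 to 0.0063, the share called was 41.3% against 1× and 38.8% against 3× glucose. The 4 higher genes were called in both fits.

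For the same 4 genes no 2-DG library overlapped with 1× glucose. Such a separation upward held for 18.3% of all genes tested and downward for 17.2%. Against 3× glucose it held for 17.5% upward, again with these 4, and for 17.3% downward, with *Mlxip*. Between 3× and 1× glucose 0 genes (0%) were called by edgeR, 178 genes had an unadjusted p under 0.05, and DESeq2 called 2. Between 0× and 1× glucose edgeR called 0.0118% of the genes, 306 had an unadjusted p under 0.05, and nothing is read from this for the genes chosen on that contrast. Every 0× library lay below every 1× library for 2.94% of all genes. *Txnip*, *Arrdc4* and *Klf10* are among them by their choice.

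**Figure D2:**
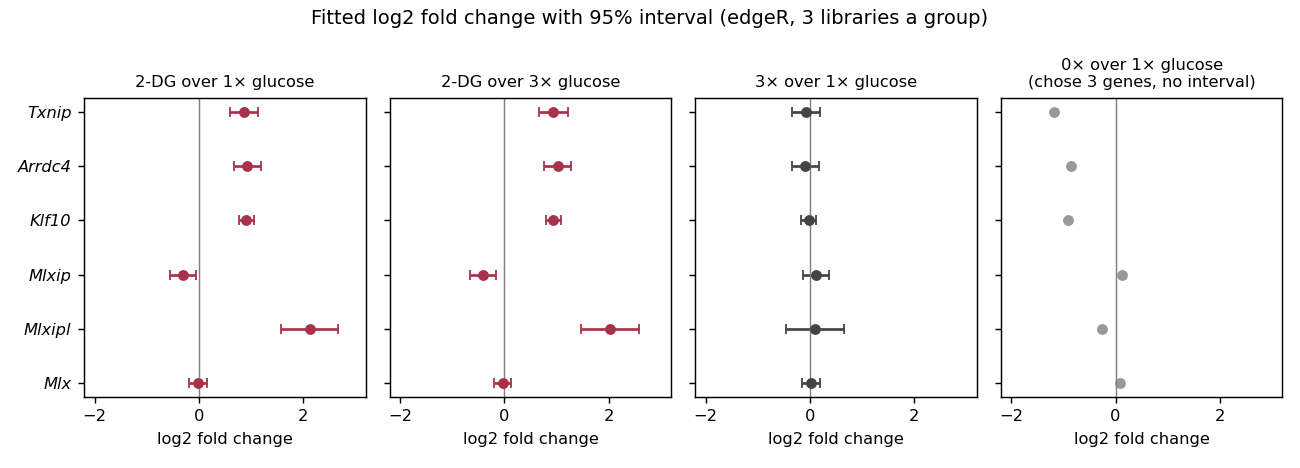
Fitted log2 fold changes (x axis) of the 6 genes (y axis) in 4 comparisons with 3 libraries a group, with 95% intervals from edgeR in 3 of them. The intervals of *Txnip*, *Arrdc4*, *Klf10* and *Mlxipl* lie above 0 in both comparisons of 2-DG, and all 6 span 0 for 3× over 1× glucose. The panel of 0× over 1× glucose shows the values on which 3 of the genes were chosen, with no interval.

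Few genes had this order of levels. In 50 of 16966 genes (0.295%) every 0× library lay below all 1× and 3× libraries and every 2-DG library above them. With group means at least 1.5-fold apart at each of these steps, 8 genes (0.0472%) were left, a rule set after the data were seen. *Txnip*, *Arrdc4* and *Klf10* were 3 of the 8. The other 5, *Alox12*, *Dleu7*, *H2-Q2*, *Rtn4rl1* and the unnamed *G630025P09Rik*, had means of 2.12 CPM or less in every group. The fall in 0× glucose that chose the 3 genes is part of this rule, so their presence in it is a description.

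*Mlxip* encodes MondoA, a glucose sensor best known from skeletal muscle. It was at 71.1, 79.8 and 87.1 CPM in 1× glucose at passages 13, 15 and 16, and at 53.1, 68.7 and 72.1 CPM with 2-DG. The groups overlapped, but within each passage the 2-DG library was the lower one, with ratios of 0.746, 0.861 and 0.828. Without the block the log2 fold change of −0.30 (standard error 0.11) missed the threshold (edgeR adjusted p = 0.0983), and with passage as a block it was −0.30 and passed (edgeR adjusted p = 0.000933). Against 3× glucose, where it was at 79.9, 86.5 and 90.1 CPM, *Mlxip* was lower with 2-DG by a log2 fold change of −0.40 (standard error 0.11, edgeR adjusted p = 0.0361). That call was lost in 6 of 14 alternatives. In 0× glucose it was at 80.1, 85.9 and 91.8 CPM, which overlaps 1× glucose.

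*Mlxipl* encodes ChREBP, the sensor best known from liver, fat and pancreatic islets. It was the lowest of the 6 genes, at 1.82, 1.21 and 1.43 CPM in 1× glucose and 6.73, 5.78 and 6.95 CPM with 2-DG, for passages 13, 15 and 16. In counts, these are 83, 46 and 66 against 230, 212 and 261. The log2 fold change was 2.12 (standard error 0.25, edgeR adjusted p = 0.000541), the largest of the 6. Against 3× glucose, at 1.97, 0.945 and 1.86 CPM, it was 2.02 (standard error 0.25, edgeR adjusted p = 0.000759). In 0× glucose the level was 1.26, 1.16 and 1.33 CPM, which overlaps 1× glucose.

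The reads behind the rise of *Mlxipl* were not of 1 kind. Of its 16 RefSeq transcripts, 12 had counts, and the one with the most (39.7% of the reads of the gene) was the non-coding model XR_377113.3. Transcripts with a coding accession held 67, 39 and 57 counts in 1× glucose and 197, 46 and 43 counts with 2-DG, at passages 13, 15 and 16. The coding count was thus far above that of 1× glucose at passage 13 only, and below it at passage 16. Non-coding transcripts held 16, 7 and 9 counts in 1× glucose and 33, 166 and 218 with 2-DG. With coding transcripts alone, an alternative added after these counts were seen, the log2 fold change was 1.13 against 1× (edgeR adjusted p = 0.221) and 0.93 against 3× glucose (edgeR adjusted p = 0.332). The higher total of *Mlxipl* with 2-DG is therefore a call on all transcripts of the locus, not on its coding ones. How far the estimate divided shared reads between the overlapping transcripts was not tested.

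**Figure D3:**
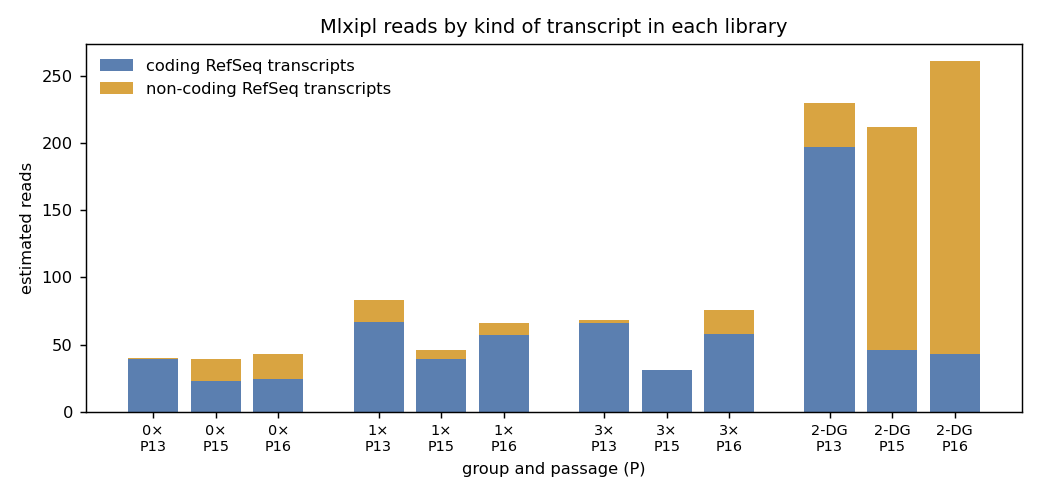
Estimated *Mlxipl* reads per library (y axis) by group and passage (x axis), stacked by coding (blue) and non-coding (yellow) RefSeq transcripts. The total rises in all 3 libraries with 2-DG, while the coding part reaches 197 reads at passage 13 and no more than 46 at the other 2 passages.

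*Mlx* encodes the shared dimer partner and moved least. It was at 26.3, 31.5 and 28.7 CPM in 1× glucose and at 30.1, 26.9 and 28.5 CPM with 2-DG, at passages 13, 15 and 16. The groups overlapped, and the 95% interval of the log2 fold change, −0.18 to 0.15, was narrow (edgeR adjusted p = 0.919). In 3× glucose it was at 27.8, 30.0 and 29.7 CPM and in 0× glucose at 29.5, 31.7 and 30.2 CPM.

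The other 5 genes differed in how their reads divided between transcripts. The 2 *Txnip* transcripts held 46.3% and 53.7% of its reads. A single transcript held 97.2% of the reads of *Arrdc4*, 95.1% of *Klf10*, 89.5% of *Mlx* and 99.6% of *Mlxip* over all libraries. Its share was lowest at 75.7% for *Klf10* with 2-DG at passage 15, and at 79.2% for *Mlx* in 1× glucose at passage 16. With the most abundant transcript alone, *Txnip*, *Arrdc4* and *Klf10* were called with 2-DG against both 1× and 3× glucose.

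To compare genes, levels were divided by exon length. In 1× glucose *Txnip* was highest, at 32.7 ± 2.09 CPM per kilobase (SD, n = 3). *Arrdc4* (17.7 ± 2.46), *Mlx* (14.5 ± 1.31) and *Klf10* (13.9 ± 0.594) followed, each overlapping the next in CPM per kilobase. *Mlxip* lay lower at 9.82 ± 0.986 CPM per kilobase and *Mlxipl* far lower at 0.41 ± 0.0857. With 2-DG the order was *Txnip* (59.6 ± 5.53), *Arrdc4* (33.6 ± 2.47), *Klf10* (26.2 ± 1.29), *Mlx* (14.3 ± 0.807), *Mlxip* (7.996 ± 1.26) and *Mlxipl* (1.79 ± 0.173 CPM per kilobase). There *Klf10* had moved above *Mlx*, and no neighbours in the order overlapped.

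The 3 target genes also had similar profiles over the 4 groups and 12 libraries. Log2 CPM was centred on the mean of each passage, and all genes tested were ranked by Pearson correlation with each target over the 12 libraries. For *Txnip* the 2 most alike genes were *Arrdc4* (r = 0.986) and *Klf10* (r = 0.984), and for *Arrdc4* the most alike was *Klf10* (r = 0.989). Without centring on passage these correlations were 0.941, 0.976 and 0.957. Within the 9 libraries without 2-DG the correlations were 0.998 for *Txnip* with *Arrdc4* and 0.979 for *Txnip* with *Klf10*. The points share libraries, groups and the 0× values on which the genes were chosen, so these are descriptions. Levels were not centred on group, so the correlations include the differences between groups. Joint variation within groups was not tested. Of the sensor genes, *Mlxip* correlated with *Txnip* at −0.80, *Mlx* at −0.50 and *Mlxipl* at 0.81. Within the 9 libraries without 2-DG these correlations were −0.55, −0.72 and 0.53.

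The other genes among the 5 most alike were *Dennd10*, *Asap3* and *Cbx7* for *Txnip*, and *Prune2*, *Wnt8a* and *Tmc4* for both *Arrdc4* and *Klf10*. Most of them moved less than the targets. *Dennd10* went from 12.5 ± 0.869 CPM in 0× through 14.96 ± 0.557 in 1× to 17.7 ± 0.749 CPM with 2-DG (SD, n = 3 each). *Wnt8a*, a Wnt ligand of the primitive streak, went from 30.6 ± 13.98 through 45.9 ± 24.8 to 80.1 ± 33.6 CPM. Its 1× and 2-DG libraries overlapped. Promoter windows were found for 5 of these 6 genes, and none held the E-box or the pair of half-sites.

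**Figure D4:**
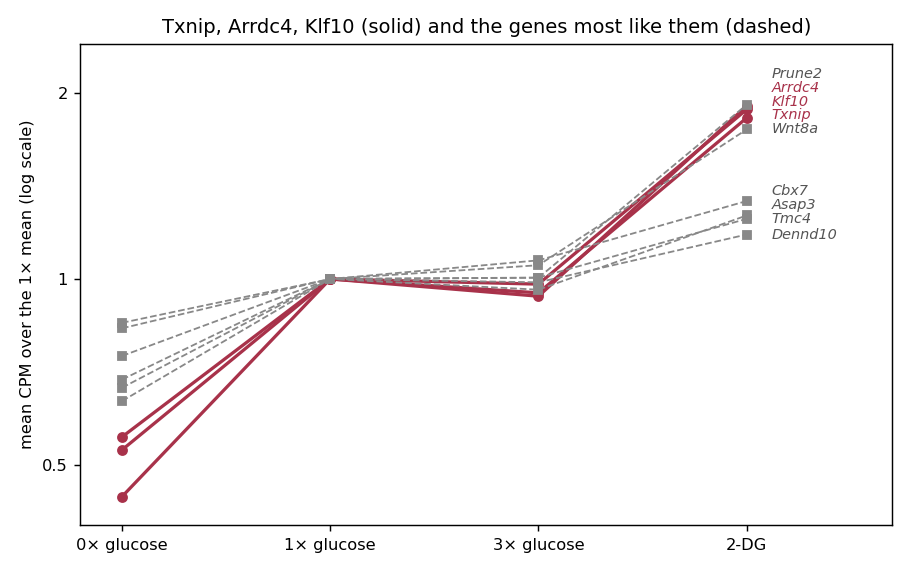
Mean CPM of each group over the mean of 1× glucose (y axis, log scale) in the 4 groups (x axis) for *Txnip*, *Arrdc4* and *Klf10* (solid red) and the 6 genes most like them (dashed grey). *Txnip*, *Arrdc4* and *Klf10* fall furthest without glucose, and with 2-DG only *Prune2* and *Wnt8a* lie near them.

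Beside these counts of lists, the share of all genes called with 2-DG against 1× glucose was 17.6%, 9.12% higher and 8.51% lower, and 41.3% with the passage block. A list with a share near these values is not set apart from other genes by its count. The share with the block covers both directions together, and was not split into higher and lower. Of 22 other genes that carbohydrate response factors are known to regulate, 16 could be tested, and 1 was higher and 1 lower with 2-DG than in 1× glucose. The median log2 fold change of the 16 was 0.07, beside 0.00 over all genes. *Rgs16*, a regulator of G protein signalling, rose from 3.17 ± 0.372 to 8.13 ± 1.11 CPM (SD, n = 3 per group), by a log2 fold change of 1.36 (edgeR adjusted p = 0.000302). Its 0× level of 3.22 ± 0.398 CPM was close to that of 1× glucose. *Hk2*, a hexokinase that phosphorylates both glucose and 2-DG, went the other way from *Txnip*. It fell from 183 ± 6.18 to 140.3 ± 10.6 CPM with 2-DG (log2 fold change −0.38, edgeR adjusted p = 0.00584). In 0× glucose it was at 243 ± 23.8 CPM, a log2 fold change of 0.41 that missed the threshold (edgeR adjusted p = 0.56). *Khk*, the ketohexokinase that starts fructose use, passed only against 3× glucose (log2 fold change 0.48, edgeR adjusted p = 0.0463), and that call was lost in 11 of 14 alternatives. Those of *Rgs16* and *Hk2* held in all 14. None of the lipogenic genes of this list was called without the block in the 4 comparisons of groups. With the passage block 5 of the 16 were higher and 1 lower with 2-DG than in 1× glucose. Among the 5 were the lipogenic *Scd1* (log2 fold change 0.32, edgeR adjusted p = 0.00101) and *Acly* (0.13, edgeR adjusted p = 0.0098).

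None of the 6 genes of glucose entry and its first phosphates passed the test with 2-DG, and with the block 2 were higher than in 1× glucose. These were *Slc2a1* (log2 fold change 0.48, edgeR adjusted p = 1.75e-05) and *Gpi1* (0.31, edgeR adjusted p = 5.44e-05). Without the block their edgeR adjusted p was 0.401 and 0.126. With 2-DG 10 other Mlx and Max network genes, which bind E-boxes as related dimers, had a median log2 fold change of −0.12. Of these 1 was lower and 0 were higher. That gene was *Mycn*, which fell from 140.1 ± 11.8 to 88.5 ± 12.2 CPM (log2 fold change −0.66, edgeR adjusted p = 0.00281), a call that held in all 14 alternatives. *Mxd3*, a Max partner that opposes Myc, was higher with 2-DG than with 3× glucose (log2 fold change 0.96, edgeR adjusted p = 0.0256), a call lost in 6 of 14. With the block 2 of the 10 were higher and 4 lower.

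Of 5 arrestins tested other than *Txnip* and *Arrdc4*, 1 was higher with 2-DG and 0 were lower. *Arrdc3*, an alpha-arrestin of receptor trafficking, rose from 89.7 ± 1.96 to 120.5 ± 12.9 CPM (log2 fold change 0.43, edgeR adjusted p = 0.0184), a call lost in 5 of 14 alternatives. In 0× glucose it was at 90.8 ± 3.47 CPM. Of 11 genes of the thioredoxin system, the partner of Txnip, 1 was lower and 0 were higher with 2-DG. That was *Prdx5*, a peroxiredoxin (log2 fold change −0.23, edgeR adjusted p = 0.0418), and *Txn2*, mitochondrial thioredoxin, was lower than in 3× glucose (−0.16, edgeR adjusted p = 0.0497). The *Prdx5* call was lost in 9 of 14 alternatives and that of *Txn2* in 10. With the block 5 of the 11 were lower and 1 higher.

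Of 15 other Klf factors 3 were higher with 2-DG and 0 lower, with a median log2 fold change of 0.25. *Klf3*, a repressor, rose from 24.3 ± 2.10 to 41.9 ± 1.86 CPM (log2 fold change 0.79, edgeR adjusted p = 0.00019). With coding transcripts alone its log2 fold change was 0.30 and did not pass (edgeR adjusted p = 0.551). *Klf6* (0.50, edgeR adjusted p = 0.0284) and *Klf7* (0.42, edgeR adjusted p = 0.0347) rose by less, and their calls were lost in 5 and 8 of 14 alternatives. With the block 5 of the 15 were higher and 0 lower. Early TGF-beta genes, listed because *Klf10* is one, had 3 of 7 lower and 0 higher with 2-DG, and a median log2 fold change of −0.57. They were *Tgif1* (−0.42, edgeR adjusted p = 0.0182), a repressor of Smad activity, its relative *Tgif2* (−0.23, edgeR adjusted p = 0.0454), and *Bambi* (−0.57, edgeR adjusted p = 0.0186), a pseudoreceptor. The calls of *Tgif1* and *Bambi* were lost in 4 of 14 alternatives each and that of *Tgif2* in 7. With the block 6 of the 7 were lower and 1 higher, the corepressor *Ski*.

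Of 9 genes of AMPK subunits and Nedd4 family ligases, which are known to control the turnover of Txnip protein, 1 was higher and 1 lower. *Prkaa2*, a catalytic subunit, rose by a log2 fold change of 0.57 (edgeR adjusted p = 0.0358) and *Prkab1* fell by 0.22 on the log2 scale (edgeR adjusted p = 0.0386). These calls were lost in 7 and 8 of 14 alternatives. With the block 1 of the 9 was higher and 2 were lower. No gene of the 8 lists was called between 3× and 1× or between 0× and 1× glucose.

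**Figure D5:**
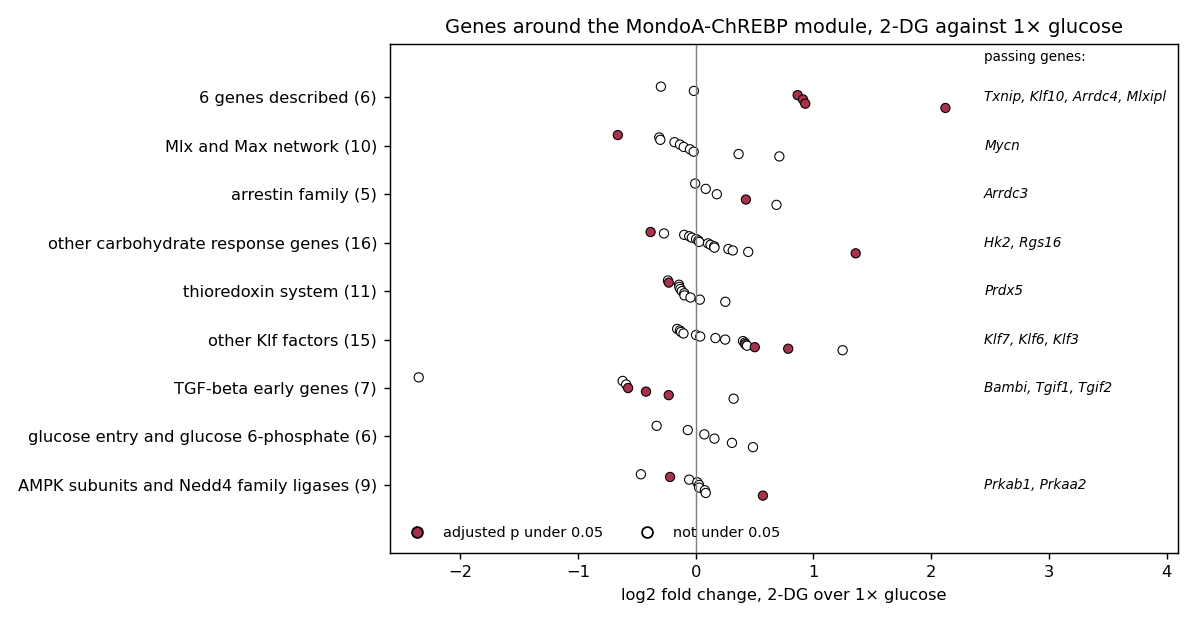
Log2 fold change of 2-DG over 1× glucose (x axis) for the 6 genes described and the tested genes of 8 lists (y axis, number tested in brackets), with 1 point per gene, red where the edgeR adjusted p was under 0.05 and the names of these at the right. The grey line is the median of all genes. *Mlxipl* and *Rgs16* lie furthest to the right among the named genes.

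Summed levels of some cell type markers also differed with 2-DG. The summed level of the 4 mesoderm markers was 596 to 687 CPM in the libraries with 0×, 1× or 3× glucose and 275 to 444 CPM with 2-DG. Of these 4 genes 1 was called lower with 2-DG than in 1× glucose, *T* (log2 fold change −1.57, edgeR adjusted p = 0.0136). *Meox1* had a log2 fold change of −0.0034, and with the block 3 of the 4 were lower. The 4 pluripotency markers summed to 23.2 to 47.6 CPM without and 49.3 to 63.1 CPM with 2-DG. Most of that sum was *Pou5f1*, at 20.3 to 53.1 CPM over all libraries. Against 1× glucose 0 of these 4 genes were called with 2-DG, and with the block 3 were higher. The 3 neural markers ranged from 42.1 to 138 CPM without and from 83.1 to 201 CPM with 2-DG. *Sox1* and *Pax6* were called higher than in 1× glucose. *Sox2*, at 35.6 to 156 CPM the largest part of the sum, was not (edgeR adjusted p = 0.595). With the block all 3 were higher. The 2 endoderm markers were at no more than 6.68 CPM together in any library. The 4 fibroblast markers, for feeder cells the line was weaned from, summed to 8.24 to 12.9 CPM in all groups. *Thy1* was at 5.71 to 9.70 CPM and *Col1a2* at 0.995 to 4.11 CPM over all libraries. *Col1a1* and *Postn* were at 0 in at least 1 library and under 0.7 CPM in all. In such bulk libraries fewer cells of a type and less RNA per cell cannot be told apart. The part of the change in cell types in the differences of the 6 genes with 2-DG was not tested. Between 0× and 1× glucose the mesoderm sums overlapped, at 634 to 687 and 596 to 684 CPM.

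Some of the 6 genes also differed between ES cell passages. Each passage is also a replicate set, so passage cannot be told apart from other differences between replicates. In the fit with group and passage, 7840 of 16966 genes differed between passages (46.2%). *Arrdc4* did so, with means of 71.4, 84.9 and 78.8 CPM at passages 13, 15 and 16 (edgeR adjusted p = 0.0064), and so did *Mlxip*, with 71.1, 80.2 and 85.3 CPM (edgeR adjusted p = 0.00162). The 2 genes were lowest at passage 13, whereas *Txnip* was highest there (105, 90.8 and 96.2 CPM) and missed the threshold (edgeR adjusted p = 0.0554). *Klf10* (61.7, 57.8 and 56.4 CPM, edgeR adjusted p = 0.0286) and *Mlxipl* (2.95, 2.27 and 2.89 CPM, edgeR adjusted p = 0.0494) passed, and *Mlx* did not (edgeR adjusted p = 0.531). In 17 alternatives each, the calls of *Arrdc4* and *Mlxip* held in all 17, and those of *Klf10* in 8 and *Mlxipl* in 5. For *Txnip* and *Arrdc4* the means of passages 13 and 15 thus stood in opposite order, while both rose with 2-DG in 3 of 3 passages.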

How the data were processed

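PolyA RNA was sequenced from 12 libraries of mouse gastruloids, 3 in each of 4 groups. The authors deposited estimated counts of 120312 RefSeq transcripts per library, made with Trim Galore, HISAT2, SAMtools, Picard and StringTie on mm10 according to the submitters' processing notes, with versions not given in the sources used here. StringTie apportions reads between overlapping transcripts, and duplicates were removed, which can compress high counts. The authors' tables of DESeq2 fold changes and p-values were not used.

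Transcripts were summed per gene by RefSeq accession (GRCm38.p6). Genes were filtered by filterByExpr (minimum count 10), and 16966 were tested in 1 fit over 12 libraries with edgeR 4.0.16 (R 4.3.3) after TMM, two-sided, with Benjamini-Hochberg adjustment over all 16966 and a threshold of 0.05. The test was checked on simulated counts without passage effects, so the check does not cover the passage differences in these libraries. DESeq2 1.42.0 served as an alternative, and pandas 2.3.3 and matplotlib 3.10.9 for tables and plots. Exon lengths are those of GENCODE M21. Depth sets counting error, which the fits include. An exact permutation test of 3 against 3 libraries cannot go below 0.1, so none was used.

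The labels give each library its ES cell passage, 13, 15 or 16, by which libraries of different groups can be paired. The main test had no term for passage, so its p-values and intervals do not use this pairing. The ratios within a passage, the centred correlations and the fit with passage as a block do. Deviations from group means had correlations of 0.0963 to 0.623 for the 18 same-passage pairs, and up to 0.191 where passage and group both differed. At most 9.67% of values were identical between 2 libraries.

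Named are the 6 genes, up to 4 called genes per list with the smallest adjusted p, and the 5 genes most correlated with each target. The 5 genes under the 1.5-fold rule were named after their values were seen. Some marker genes and some list genes called only with the passage block are also named. The genes and lists were chosen with earlier results of these data known. Alternatives were the normalization, the filter, DESeq2, the passage block, the 2 groups alone, the most abundant or the coding transcripts, and leaving out each library.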

Additional observations from a re-analysis of the deposited data

How the results depend on the processing

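*Txnip*, *Arrdc4* and *Klf10* stayed higher with 2-DG than in 1× and in 3× glucose, past the threshold, in all 14 alternatives (log2 fold changes 0.77 to 1.08). Of the list genes named, the calls of *Mycn*, *Rgs16* and *Hk2* held in all 14, and that of *Klf3* against 1× glucose was lost with the most abundant transcript alone (0.30) and with coding transcripts alone (0.30). The other list calls made without the block were lost in 1 to 11 of the 14. The passage as a replicate block changed 1 call among the 6 genes between groups, *Mlxip* with 2-DG against 1× (−0.30), and gave 7001 genes with 2-DG against 1× and 6588 against 3× glucose. With the most abundant transcript alone there were 653, 544 and, for 3× against 1×, 2 genes, with 1879 between passages, and with only the 2 groups compared 1896 with 2-DG against 1× and 0 for 0×. DESeq2 called 2 genes for 3× and 11 for 0× glucose. Leaving out 1 library gave 1734 to 2352 genes with 2-DG against 1× (1734, 1738 and 1960 without 1× passage 15, 2-DG passage 15 and 2-DG passage 13), 1440 to 1853 against 3× (1440, 1467, 1571 and 1667 without 3× passage 15, 2-DG passage 15, 2-DG passage 13 and 3× passage 16), and 1 to 3 for 0× (1 without 0× passage 13 or 1× passage 16). The call of *Mlxipl* was lost with the most abundant transcript alone (4.37 and 4.43 against 1× and 3×) and with coding transcripts alone (1.13 and 0.93), where its 0× against 1× value was −0.49. *Mlxip* against 3× glucose missed the threshold with the most abundant transcript (−0.40), with only 2 groups (−0.41), and without 3× passage 15 or 16 or 2-DG passage 13 or 15 (−0.39, −0.36, −0.28 and −0.45), with a range of −0.48 to −0.28 over single libraries. Values near 0 changed sign without 1 library: *Mlx* with 2-DG (−0.077 to 0.044 against 1×, −0.073 to 0.010 against 3×), and for 3× against 1× *Klf10* (−0.089 to 0.0038), *Mlx* (−0.044 to 0.077, and −0.00034 with no filter on low counts) and *Mlxipl* (−0.081 to 0.36, and −0.056 with the most abundant transcript). The adjusted p of passage was 0.0291 for *Txnip* with library totals only and 0.0148 with DESeq2, 0.316 for *Klf10* with the most abundant transcript and 0.0798 with DESeq2, and 0.0872, 0.912 and 0.18 for *Mlxipl* with no filter, the most abundant transcript and DESeq2. Over single libraries left out it ranged from 0.00854 to 0.162 for *Txnip* (passing without 0× passage 16 or 2-DG passage 15 or 16), 0.013 to 0.0947 for *Klf10* (lost without any of 7 libraries) and 0.0341 to 0.145 for *Mlxipl* (lost without any of 9). Fewer samples or reads enter the fits that leave out libraries or transcripts, and otherwise the cause was not tested.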
